A study of Drosophila melanogaster with 2 samples.

Results

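Binding of toy-eGFP was examined at 10 segmentation genes of Drosophila melanogaster, out of 13968 protein-coding genes on the chromosome arms: the pair-rule genes eve, ftz, run and hry and the segment polarity genes en, inv, hh, ptc, ci and wg. The genes were chosen by name, and a peak was given to a gene where its summit lay inside the gene or where the gene had the nearest protein-coding transcription start site (TSS). The data are peak lists from chromatin immunoprecipitation sequencing of 2 biological replicates, which form 1 group with no contrast between conditions. Both replicates are whole embryos aged 0 to 24 h from the strain toy-GFP, transgenic flies with an insertion targeting toy that express a fusion of toy to eGFP, and the chromatin was precipitated with an antibody to GFP. Twin of eyeless (toy) encodes a Pax6 homologue that acts in the primordia of the eye and brain. Both replicates carry the same donor label, and the control they name is not analysed here. The labels used here do not give the promoter that drives the fusion, and in whole embryos a site occupied in few cells and a site occupied weakly in many cannot be told apart.

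Pair-rule genes encode transcription factors that are expressed in stripes in alternate segments of the early embryo. They set the stripes of the segment polarity genes, which hold the boundary inside each segment through a loop between neighbouring cells: cells with engrailed secrete Hedgehog, the adjacent cells receive it through Patched and the factor Ci and secrete Wingless, and Wingless maintains engrailed. These genes are controlled by many separate enhancers in the sequence around them, and engrailed, invected and other genes of the group are known targets of Polycomb repression.

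The 3 genes en, ptc and hry had a toy-eGFP peak in the conservative list of the series, 1 each, and the other 7 had none. The conservative list holds the 1402 peaks on the arms that passed the authors' irreproducible discovery rate (IDR), a measure of how well a peak's rank repeats between 2 peak sets, here at most 0.01. By the same rule 9.06% of all protein-coding genes had a conservative peak. Among the 2261 genes with 20 or more peaks in the ranked list behind it, which also keeps the peaks that did not pass, the share was 19.7%, and 8 of the 10 genes belonged to these. Counts of 3 of 10 and 3 of 8 are too small to set apart from these shares, and no test was made. In the authors' signal units the values were 94.8 at en, 94.4 at ptc and 72.4 at hry, with a median of 94.4, against a median of 106 over the conservative list. Signal values of the series run higher than those of a single replicate at the same site, so values are compared within a list or between the replicates, whose medians over conservative peaks were 53.2 and 54.8.

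All 3 peaks lay between genes, and none was at a promoter or inside a gene. Over the whole list 11.2% of summits were intergenic (Wilson 95% interval 9.65 to 13.0%, counting error only) and 54% were within 500 bp of a TSS. An intergenic conservative peak was found at 0.924% of protein-coding genes and a promoter peak at 5.69%. Among all ranked peaks at the 10 genes, passing or not, 57.9% were intergenic and 7.41% at promoters. With 3 peaks no preference for a place can be read from these shares, and no test was made. The median signal of the 157 intergenic peaks was 97.2, with an interquartile range of 77.6 to 140, so en and ptc were close to the middle of that class and hry was below its lower quartile.

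Only replicate 1 had thresholded peaks of its own at these genes. In the thresholded list of replicate 1 alone, en and ptc had a peak, 2 of 10 genes against 6.18% of all genes. In that of replicate 2 none of the 10 had one, against 7.23% of all genes. Over the conservative list 619 of 1402 peaks (44.2%) overlapped a thresholded peak of both replicates by at least 1 base, and 0 of the 3 did so. Each of the 3 did overlap a ranked peak in both replicates, with summits at most 14 bp apart from that of the series. An overlapping ranked peak in both replicates was found for 1388 of the 1402 conservative peaks. This overlap is thus common to nearly the whole list and does not set the 3 apart.

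**Figure D1:**
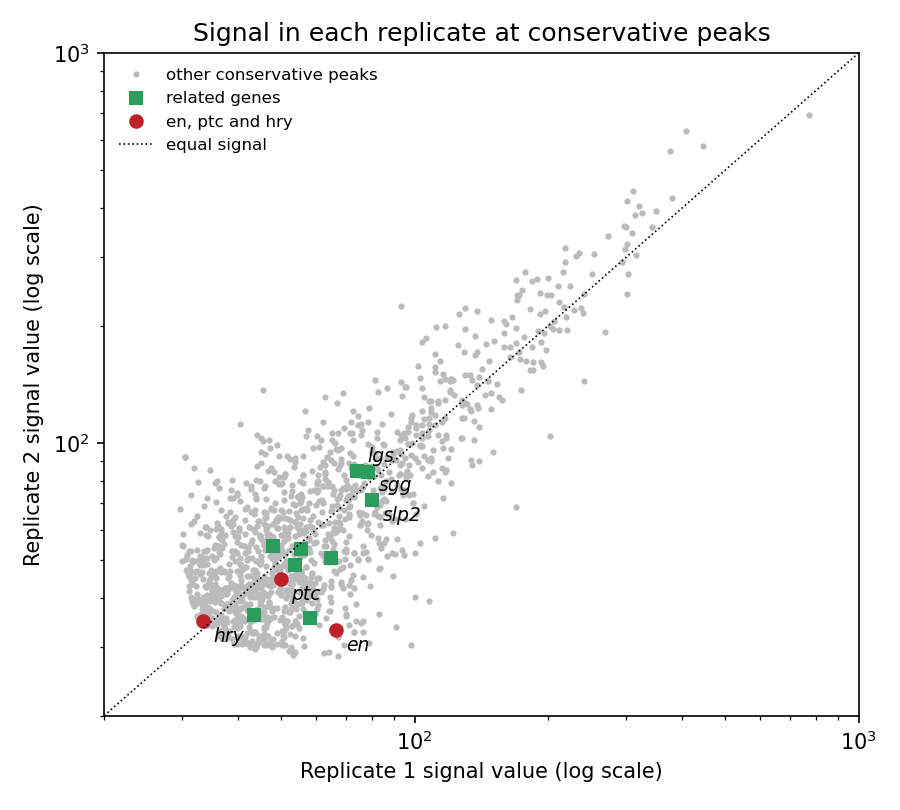
Signal value of the overlapping ranked peak in replicate 1 (horizontal, log scale) and replicate 2 (vertical, log scale) for the 1388 peaks of the conservative list that had a value in each replicate; red points are en, ptc and hry, green squares the 9 peaks of related genes, and the dotted line marks equal signal. The peak of en lies well below the line, at 66.4 and 33.1, while ptc and hry lie near it in the weaker part of the cloud.

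Among the pair-rule genes, hry (hairy) had the strongest signal. It encodes a basic helix-loop-helix repressor and lies on 3L (FBgn0001168; 8675759 to 8679253, dm6, plus strand). Its conservative peak (8696601 to 8696940) was 20816 bp downstream of the nearest hry TSS and 17518 bp past the end of the gene. The nearest TSS of another protein-coding gene, SrpRbeta, was farther away, at 23454 bp. Replicate 1 gave 33.4 there and replicate 2 gave 34.9, so the replicates were alike at this site, but neither passed its own threshold (IDR 0.0721 and 0.103). The peak was just inside the conservative list, with an IDR of 0.00967. The series has a further thresholded list, called pooled here, and in the ranked list behind it the same peak had an IDR of 0.702 and did not pass.

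Further sites downstream of hry passed in the pooled list instead. One lay 8021 bp from the TSS (8683806 to 8684145), with a signal value of 73.5, and another 15916 bp from it (8691701 to 8692040), with 60.7. The first gave 48.2 in replicate 1 and 26.4 in replicate 2, and the second gave 38.6 and 29.5. In the ranked list behind the conservative list they stood just outside the threshold, with an IDR of 0.0203 and 0.0126. All of these sites were intergenic and on the same side of the gene. At the hry promoter itself the strongest ranked peak had a signal value of 56.0 in the series' list and 30.8 and 23.7 in replicates 1 and 2, and it did not pass.

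The sequences printed here run 100 bp to either side of the summits of these hry sites, shown because they are the only thresholded sites at the pair-rule genes, on the plus strand of dm6 in the RefSeq Release 6 sequence (3L, 8696671 to 8696871, then 8683876 to 8684076, then 8691771 to 8691971). Short words, 9 in all, were searched on both strands as a description: the homeodomain core TAATTA, a homeodomain dimer made of TAAT and ATTA with 3 bases between, the paired domain fragment TCACGC, the GAGA factor word GAGAG, the Pho core GCCAT, the Ci core GACCACC, the DRE word ATCGATA, the Zelda word CAGGTAG and the Homothorax word TGACAG. None of the 9 words occurs in these windows, so they are in lower case throughout.
hry, conservative peak: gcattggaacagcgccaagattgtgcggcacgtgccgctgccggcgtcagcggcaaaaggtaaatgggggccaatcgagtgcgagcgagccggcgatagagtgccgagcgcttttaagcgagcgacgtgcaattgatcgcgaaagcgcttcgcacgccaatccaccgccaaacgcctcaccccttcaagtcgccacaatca
hry, pooled peak near the gene: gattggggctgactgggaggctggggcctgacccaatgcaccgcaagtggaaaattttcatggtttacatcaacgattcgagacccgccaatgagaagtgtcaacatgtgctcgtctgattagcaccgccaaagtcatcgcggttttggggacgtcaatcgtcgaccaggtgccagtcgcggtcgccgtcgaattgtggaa
hry, pooled peak farther out: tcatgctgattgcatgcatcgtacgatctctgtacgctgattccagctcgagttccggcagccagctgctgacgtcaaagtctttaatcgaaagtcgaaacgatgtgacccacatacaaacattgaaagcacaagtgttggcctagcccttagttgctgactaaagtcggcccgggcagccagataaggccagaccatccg

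The hry windows were rich in G and C for this list. The window of the conservative peak had 60.7% G and C, and 13 of the 1402 conservative windows (0.927%) had as much or more, where the median was 35.8% and the interquartile range 31.3 to 41.8%. The others, which are in the pooled list only, had 54.7% and 51.2%. Such values were not particular to hry, as the en peak had 52.2%. The strongest ranked sites of eve, inv and hh had 53.2%, 51.2% and 50.7%. Those of ftz, run and wg had 46.3%, 42.3% and 32.8%, and the ptc peak had 33.3%. Over the 126842 windows of the series' ranked list the median was 46.8%, between an interquartile range of 41.3 and 52.2%.

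The remaining pair-rule genes had 0 peaks in all 4 thresholded lists. The homeobox gene ftz (FBgn0001077; 3R, 6864324 to 6866244) came nearest to the threshold, with a ranked peak at 62.8 lying 6523 bp upstream of its TSS (6857631 to 6857970; IDR 0.0744) and another at 62.6 lying 17674 bp downstream (6881828 to 6882167; IDR 0.0341). Replicate 1 gave 35.0 and replicate 2 gave 22.9 at the first site, and 27.5 and 30.1 at the second, so each site was stronger in a different replicate. The first was also 7820 bp from the TSS of another gene, Scr. The second was in an intron of a gene that does not code for protein, 15754 bp past the end of ftz. The Runt-domain gene run (FBgn0003300; X, 20690670 to 20697321) reached 32.1, at a site 5166 bp upstream (20685334 to 20685673) that had a ranked peak of 22.7 in replicate 2 and none in replicate 1.

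The homeobox gene eve (FBgn0000606; 2R, 9979319 to 9980795) had the smallest territory of the 10, 8.90 kb including the sequence nearest to its TSS, and 9 ranked peaks. The strongest, at 33.8, lay 2022 bp upstream (9977127 to 9977466), with 17.3 in replicate 1 and 15.2 in replicate 2. Genes with a stronger strongest ranked peak made up 70.8% of the 11864 with any for eve and 74.7% for run, against 15.2% for ftz and 11% for hry. The strongest values at eve and run were thus below those of most genes in the series' ranked list. Each is the highest of a gene's ranked peaks, 9 at eve, 39 at run, 54 at ftz and 50 at hry. The 11864 genes were not matched for that number.

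Of the segment polarity genes, en (engrailed), a homeobox repressor that marks the posterior part of each segment, had the highest signal of the 10 genes in the lists of the series and in replicate 1. In replicate 2 ptc was highest, at 44.7, and no peak of en was above 35.0. The gene en lies on 2R (FBgn0000577; 11524006 to 11528210, minus strand), and its peak (11529491 to 11529830) was 1451 bp upstream of the TSS. Replicate 1 gave 66.4 and replicate 2 gave 33.1, a log2 ratio of replicate 2 to replicate 1 of -1.0. Over 1388 conservative peaks this log2 ratio had a median of 0.04 and an SD over peaks of 0.46, and 20 peaks (1.44%) had a lower one. The peak passed in replicate 1 (IDR 0.00129) and not in replicate 2 (IDR 0.157), and in the series' ranked lists its IDR was 0.00384 and 0.00121. Polycomb response elements are known upstream of en, and these data do not show what else was bound at this site.

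The window of 100 bp to either side of the en summit held 6 copies of GAGAG, 5 of which overlap another copy, 1 of GCCAT and 1 of TCACGC, which lay 12 bp from the summit. Windows with 6 or more copies of GAGAG made up 0.571% of the conservative and 0.444% of the ranked windows. Shares with at least 1 copy in conservative windows were 23.8% for GAGAG, 28.0% for GCCAT and 4.42% for TCACGC. The TCACGC overlapped a GAGAG by 2 bases. A match is a description of the sequence and not a bound site.

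The neighbouring homeobox gene inv (invected; FBgn0001269; 2R, 11474465 to 11509695) shares its regulatory region with en but had no thresholded peak. Its strongest ranked peak, at 59.9, lay in its intron 2161 bp from the TSS (11477699 to 11478038), with 43.9 in replicate 1 and 18.6 in replicate 2. Another peak, in coding sequence of inv near its far end (11506729 to 11507068; 54.4), was nearest to the TSS of en and so was given to both genes. There the order was turned around, with 13.0 in replicate 1 and 35.0 in replicate 2. The gene en had 71 ranked peaks in a territory of 53.6 kb and inv had 67 in 46.1 kb, and 1 of these sites passed.

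**Figure D2:**
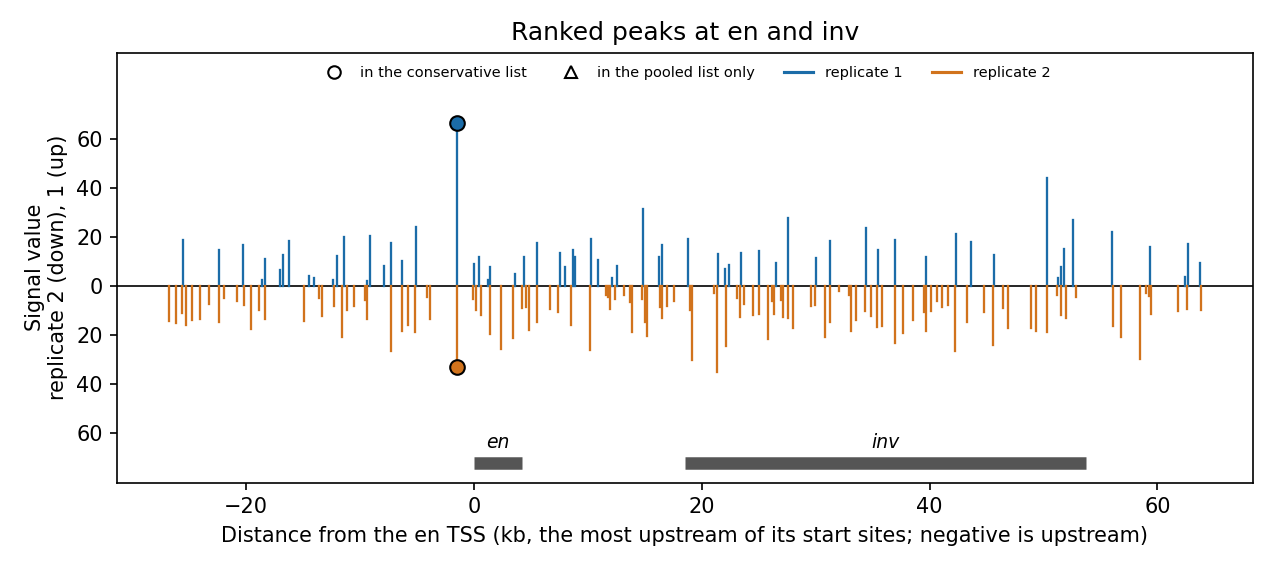
Ranked peaks at en and inv by distance from the most upstream en TSS in kb (horizontal; negative is upstream of en), with the signal value in replicate 1 drawn upward and in replicate 2 downward; grey bars are the genes and circles mark the conservative peak. The site 1451 bp upstream of en stands out in replicate 1, at 66.4, while in replicate 2, at 33.1, it is not above a peak of 35.0 inside inv.

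The gene ptc (patched), which encodes the receptor of Hedgehog and is itself induced by Hedgehog signalling, had a site of similar height in both replicates. It lies on 2R (FBgn0003892; 8649649 to 8665223, plus strand), and the peak (8644257 to 8644596) was 5222 bp upstream of its TSS, with the next TSS of another gene, CG8635, at 12465 bp. Replicate 1 gave 50 and replicate 2 gave 44.7. It passed in replicate 1 with an IDR of 0.00895 and fell just outside in replicate 2 with 0.0109, and its series IDR was 0.00219 and 0.00109. The same window at ptc had 33.3% G and C and held 1 GACCACC, the core bound by Ci, 95 bp from the summit; 1.07% of conservative and 2.40% of ranked windows held one. At the ptc promoter the strongest ranked peak was 32.6 in the series' list, 20.8 in replicate 1 and 19.2 in replicate 2.

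**Figure D3:**
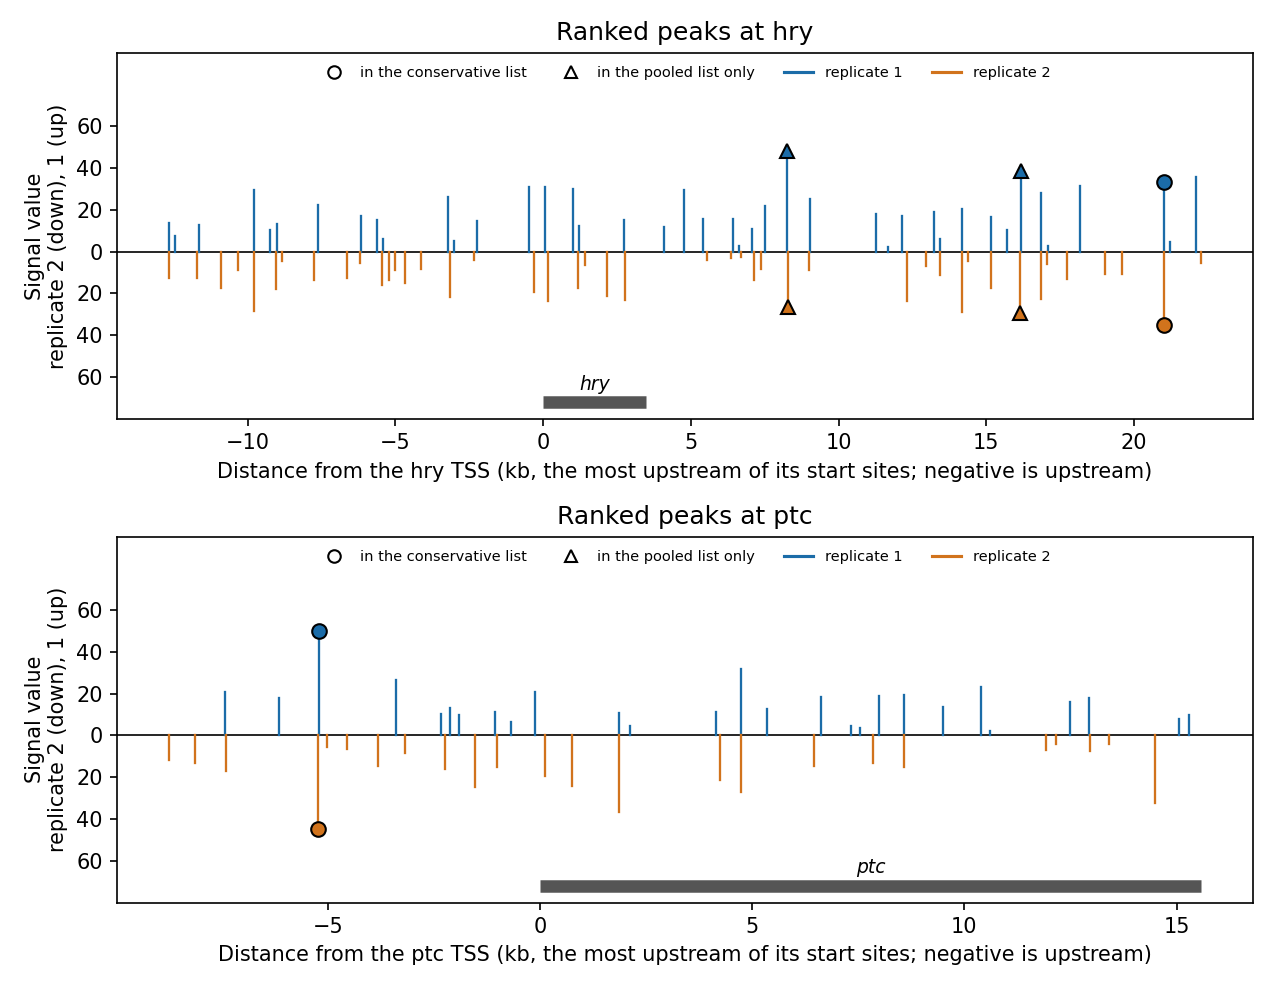
Ranked peaks at hry (top) and ptc (bottom) by distance from the most upstream TSS of each gene in kb (horizontal), with the signal value in replicate 1 drawn upward and in replicate 2 downward; circles mark conservative peaks, triangles peaks of the pooled list only, and grey bars the genes. The marked sites of hry all lie past its end, and the marked site of ptc, at 50 and 44.7, lies upstream of it.

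The signalling genes wg and hh had no thresholded peak. The gene wg (wingless), the Wnt ligand of the segment, lies on 2L (FBgn0284084; 7307159 to 7316265). Its strongest ranked peak, at 63.1, was 11100 bp upstream (7295889 to 7296228), with 30.6 in replicate 1, 28.8 in replicate 2 and an IDR of 0.0260. Its promoter peak was next, at 59.7, with 38.9 in replicate 1 and 16.1 in replicate 2. The ligand gene hh (hedgehog; FBgn0004644; 3R, 23128169 to 23141906) reached 53.8 at a site 4987 bp upstream (23146723 to 23147062), with 22.4 and 24.7 in the replicates, and its IDR of 0.148 was far from the threshold.

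The windows of the strongest wg and hh sites are shown because they carry the Pho core, in capitals on either strand, and lie at the ligand genes of the segment polarity loop (wg on 2L, 7295959 to 7296159; hh on 3R, 23146793 to 23146993; plus strand of dm6, RefSeq Release 6).
wg, strongest ranked site: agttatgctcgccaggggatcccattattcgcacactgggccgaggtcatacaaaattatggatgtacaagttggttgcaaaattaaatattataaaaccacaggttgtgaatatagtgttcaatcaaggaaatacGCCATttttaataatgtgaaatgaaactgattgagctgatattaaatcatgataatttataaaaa
hh, strongest ranked site: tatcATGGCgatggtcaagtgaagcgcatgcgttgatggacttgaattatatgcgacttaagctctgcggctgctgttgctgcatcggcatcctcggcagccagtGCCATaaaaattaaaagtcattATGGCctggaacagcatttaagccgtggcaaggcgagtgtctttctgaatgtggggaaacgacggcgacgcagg

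The hh window held 3 copies of GCCAT and the wg window held 1; 2.81% of ranked windows held 3 or more. All 6 strongest ranked sites of the genes without a thresholded peak but with a ranked one (eve, ftz, run, inv, hh and wg) held at least 1 GCCAT, where 41.2% of ranked windows did, while none of the 3 hry sites did. The other 8 words were absent from those 6 windows. With 9 words searched in few windows this is a description only.

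The gene ci (cubitus interruptus; FBgn0004859; 4, 47710 to 57041) encodes the transcription factor at the end of the Hedgehog pathway, and its data came from replicate 1 alone. That replicate had 10 ranked peaks at ci with signal values from 3.84 to 23.9, the highest 587 bp upstream of a TSS, and none passed. Replicate 2 and both ranked lists of the series had 0 there. Chromosome 4 had 481 ranked peaks in replicate 1, 94 in replicate 2 and 95 in the series' list, so the absence at ci goes with a low number of peaks on this chromosome. Whether that number sets the result at ci was not tested.

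Below the threshold, ranked peaks were found at 9 or more of the 10 genes in each replicate, at signal values like those of all ranked peaks. In the series' ranked list 9 of the 10 genes had at least 1, against 84.9% of protein-coding genes. The count was 10 of 10 against 90.7% in replicate 1 and 9 of 10 against 82.4% in replicate 2. The 378 ranked peaks at the 10 genes had a median signal of 19.8, against 19.5 over all 126842. In replicate 1 the medians were 14.4 and 14.5, and in replicate 2 they were 12.7 and 12.4. Ranked peaks were spaced at 10.1 to 14.7 per 10 kb of territory in the 9 genes that had any, and at 9.22 per 10 kb over all arms. The value over all arms divides by their full length, Y included, and was not matched to territories like these. By gene the median ran from 16.4 at run to 26.9 at hry. Of the 378, 57.9% were intergenic and 7.41% at promoters, against 23.1% and 16.2% of all ranked peaks. The territories that the assignment rule gives these genes, the gene bodies included, run from 8.90 to 53.6 kb.

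Strongest promoter peaks of the 10 genes, where present, ran from just below the median of the series' ranked list to far above its upper quartile. That median was 19.5 and the upper quartile 29.1. In the ranked list behind the conservative list the strongest promoter peak was at wg (59.7), followed by hry (56.0) and ptc (32.6). It was 29.4 at inv, 27.9 at run, 24.5 at en, 23.3 at eve and 18.2 at ftz, and hh and ci had none within 500 bp of a TSS of their own. In the ranked list behind the pooled list hh had promoter peaks, the stronger at 18.2, and replicate 2 had one there at 17.3, while replicate 1 had none. At wg the promoter value was higher in replicate 1 (38.9) than in replicate 2 (16.1), and at en both were low, at 12.1 and 11.8.

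Below the threshold the replicates matched at the 10 genes about as often as over the whole ranked list. Of the 378 ranked peaks at the genes, 179 (47.4%) overlapped a ranked peak in both replicates and 47 (12.4%) in neither, against 43% and 11.9% of all 126842. The share in both was highest at eve, with 7 of 9, and at hry, with 34 of 50, and lowest at run, with 11 of 39. Among the 179, replicate 2 was the higher in 67 (37.4%), with a median log2 ratio of -0.21, against 43% and -0.13 over all ranked peaks found in both. These are descriptions, and the differences were not tested.

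**Figure D4:**
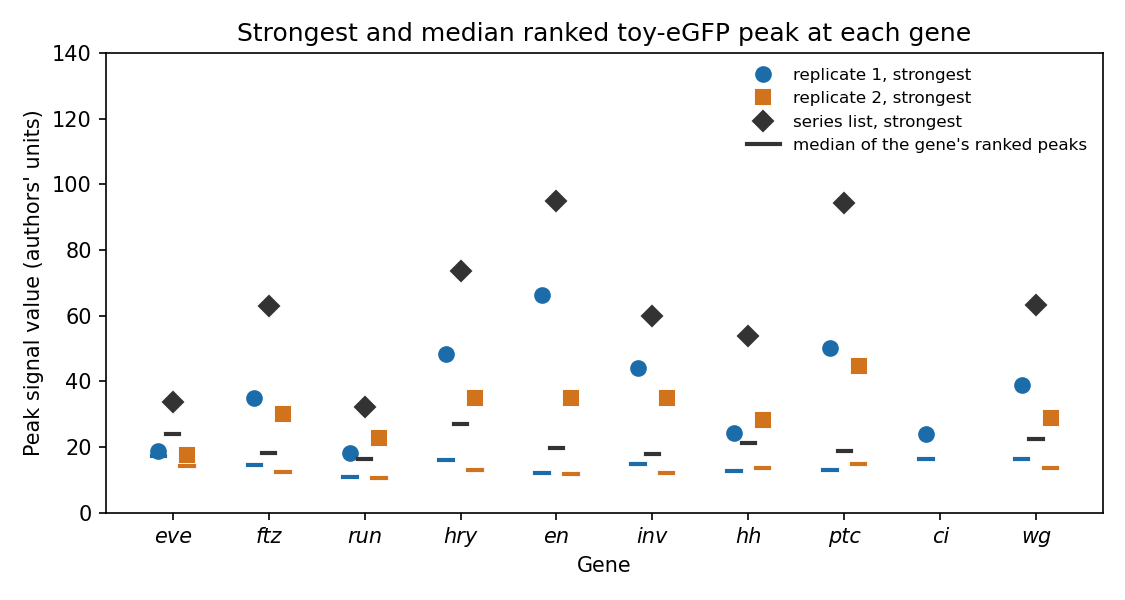
Signal value (vertical, authors' units) of the strongest ranked peak given to each gene in replicate 1 (blue circles), replicate 2 (orange squares) and the series' ranked list (dark diamonds), with short lines at the median of the gene's ranked peaks in each list. The diamonds of en and ptc, at 94.8 and 94.4, stand above the rest, eve and run stay below 35 in every list, and ci has values in replicate 1 alone.

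Peaks with a higher signal passed more often, but signal alone did not give the distance from the threshold. A ranked peak of inv at 59.9 had an IDR of 0.333, and one of hry at 60.7 had 0.0126. In the series' ranked list 80.5% of the 1569 peaks with a signal of at least 70 were in the conservative list, and so were 3 of 4 at the members. At a signal of at least 60 the share was 56.9% of 2338, and 3 of 8 at the members. The 5 of these 8 that did not pass were at hry, ftz and wg. At a signal of at least 50 it was 29.3% of 4566, and 3 of 20 at the members.

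Partners of these genes were counted in lists of related genes, to be read beside the 9.06% of all genes with a conservative peak. Of the other pair-rule genes odd, prd, slp1, slp2 and opa, 1 of 5 had a conservative peak: slp2, a forkhead factor, with a peak at 153 lying 4312 bp upstream of its TSS (2L, 3832358 to 3832697). Replicate 1 gave 80.3 there and replicate 2 gave 71.4, and both passed, unlike at any of the 10 genes. Trunk gap genes had 1 of 5, the zinc finger gene hb at its promoter (89.6; 58.2 in replicate 1 and 35.5 in replicate 2). The gooseberry genes gsb and gsb-n had 0 of 2.

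Genes of the Wingless pathway had conservative peaks in 4 of 15. The kinase gene sgg (GSK3) had a promoter peak at 167, with 78.5 and 84.2 in replicates 1 and 2. The peak of lgs, a cofactor of beta-catenin, was at 149 and lay 19077 bp from its TSS on chromosome 4, with 74.3 and 85.0. Co-receptor gene arr and receptor gene fz had 2 intronic peaks each, the strongest at 106 and 115, and both strongest peaks passed in both replicates. These intronic peaks were nearer to the TSS of another gene, CG43192 and CG13482. Of the Hedgehog pathway 1 of 9 had a peak: ttv, a heparan sulfate polymerase gene needed for Hedgehog movement, in an intron at 104 and nearest to the TSS of LamC. Over the 36 related genes 7 had a conservative peak, and by nearest TSS alone 4. The 9.06% of all genes goes with the 7, as no share was computed by nearest TSS alone. No test was made of these counts. In the pooled list the 10 segmentation genes again had 3 with a peak, the same 3 genes, against 11.7% of all genes, and the related genes had 9. At hry the peaks of the pooled list were at other sites than the conservative peak.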

How the data were processed

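The authors deposited 8 peak lists, thresholded and ranked for each replicate and for the series, and the signal value per peak is the authors' own. How it was scaled, and which aligner and caller were run, is not stated in the texts at hand. The deposited −log10 of the global IDR was turned back into an IDR. Per the text files deposited with the samples, lists are on dm6 and each replicate's lists derive from its own alignments. Read depth is unknown; the 2 replicates had 81037 and 115142 ranked and 925 and 1098 thresholded peaks. Columns that could not be tied to a sample, 8 per ranked list of both replicates together (2 such lists), were left unused.

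Genes came from Ensembl release 115 (BDGP6.54) and sequence from RefSeq Release 6, the same assembly; every peak end lay within its arm. Summits within 500 bp of any TSS were called promoter, and overlap needed 1 shared base. A site's replicate value is the strongest overlapping ranked peak in that replicate. With 1 group and no control list no test was made; members are set beside the share of all genes. Words were searched 100 bp to either side of the summit. Routines (Python 3.11.15, pandas 2.3.3) were tested on planted summits and words. The members, lists and words were chosen with earlier results of these data known. All 10 members are named, as are related genes with a conservative peak (at most 4 a list) and the genes next to or around a member's peak. The threshold of 20 ranked peaks, the windows of 200 bp to either side and the alternatives for related genes were chosen after seeing the data.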

Additional observations from a re-analysis of the deposited data

How the results depend on the processing

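The count of 3 members with a conservative peak stayed at 3 by nearest TSS alone. It was 3 in the pooled list too, but there hry passed at other sites than in the conservative list. With the list of a single replicate it ran from 0 to 2, as did the number of peaks, and the median signal with replicate 1 alone was 58.2 in that list's own units; replicate 2 alone had no peak to give a median. Both counts were 0 at an IDR of at most 0.001 and with summits inside the gene only. Within 5 kb of a TSS 1 gene with 1 peak was left, that of en. With the gene and 20 kb on either side, whatever gene was nearest, 6 genes shared 5 peaks. The peak of en was counted for inv as well, and those at eve and hh lay at promoters of other genes. No share of all genes was computed for the stricter IDR, nearest TSS, gene only, 5 kb or 20 kb settings. The counts under those settings thus have no background to be read beside. The pooled list gave 5 peaks with a median signal of 73.5, counting a ptc peak at 5.05 that overlaps the ptc peak at 94.4. None of the 3 conservative peaks overlapped thresholded peaks of both replicates, with the summit inside or with a larger overlap asked for as well. Thus 0 genes were left when this was required. With the ranked lists all 3 peaks did, as did 1388 of the 1402 conservative peaks. Related genes with a peak numbered 4 by nearest TSS alone, in place of 7. With 200 bp to either side of the summit the same number of words, 4, was found at the 3 peaks. No paired analysis was possible because the 2 samples form a single group. Read depth is unknown, so a missing peak does not show that a site was unbound.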

Other observations

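Conservative peaks near 2 members belonged to other genes by the rule, and both lay at promoters; they were chosen after their values were seen. The strongest, at 435, was at the promoter of Pal1 (2R, 9959799 to 9960029), which encodes a peptide-amidating enzyme, 19405 bp upstream of the eve TSS. The other, at 78.3, was nearest to the TSS of Cow (3R, 23112744 to 23113083), which encodes a secreted carrier of Wingless, and lay 28992 bp from the TSS of hh.

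The pooled list held a further ptc peak (2R, 8644460 to 8644799) with a signal value of 5.05, which overlaps the peak at 94.4. Of the 37 peaks of the pooled list with a signal below 10, 37 overlapped a stronger listed peak, and so did 26 of 26 in the conservative list. The ptc peak at 5.05 had an IDR of 0.00108 in one ranked list of the series and 0.795 in the other.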
